A study of Mus musculus with 2 samples.

Results

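Rgs1, Rgs2, Rgs3, Rgs10 and Rgs16 encode regulators of G protein signalling (RGS proteins), and they are 5 of the 32285 genes in the deposited count tables. The 5 were named for their levels in these libraries, so the differences between libraries are descriptions of values that had already been seen. The study profiled T cells from subcutaneous EMT6 tumours, a transplantable mouse mammary carcinoma, in BALB/c mice of 4 to 6 weeks. One group received 2 weekly cycles of mSTAR1302 into the peritoneum and the other received vehicle, from a tumour volume of 80 to 150 mm3. By its makers' account, mSTAR1302 joins interleukin-2 to an antibody that binds T cell receptors built with the segments Trbv13-2 or Trbv13-3. CD4+ and CD8+ cells were pulled from digested tumours with magnetic beads and read by droplet sequencing of transcript 3′ ends. Each group was 1 library, how many mice it pooled is not stated in the labels, and no test between groups was possible.

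RGS proteins speed the hydrolysis of GTP on the alpha subunits of G proteins and thereby shorten the signal of G protein-coupled receptors. In lymphocytes the best known of these receptors are the chemokine receptors, which steer cells between vessel, tissue and lymph node. Rgs1, Rgs2, Rgs3 and Rgs16 belong to one subfamily, several members of which are induced when lymphocytes are activated, while Rgs10 belongs with Rgs12 and Rgs14.

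Transcripts were counted as unique molecular identifiers (UMIs). The mSTAR1302 library held 96486469 UMIs and 9155 cells (median 6260 UMIs), and the vehicle library 110026997 UMIs and 7615 cells (median 8448), with 17 cell barcodes shared. T cells were sorted into gates by single transcripts. The CD8 gate (Cd8a or Cd8b1, no Cd4) held 6290 and 2460 cells, the gate of CD4 cells without a Foxp3 UMI 791 and 622, and that of CD4 cells with Foxp3, the transcription factor of regulatory T cells, 146 and 1365. All 8 T cell markers were present in each gate, and their summed level was 5905 to 6671 CPM with mSTAR1302 and 5705 to 6433 CPM with vehicle. Levels are in CPM, the UMIs of a gene over all UMIs of the gate scaled to 1e6, with exact 95% Poisson intervals, and ratios are mSTAR1302 over vehicle with exact conditional binomial intervals. All intervals cover counting error only.

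Rgs16, an RGS protein induced in activated T cells, was lower in the mSTAR1302 library in all 3 gates. In CD8 cells it stood at 173 CPM (170 to 177) with mSTAR1302 and 453 CPM (445 to 460.5) with vehicle. CD4 cells without Foxp3 held it at 34.3 CPM (29.4 to 39.7) and 81.0 CPM (72.8 to 90.0). CD4 cells with Foxp3 held it at 36.1 CPM (26.3 to 48.3) and 144 CPM (138 to 150.1). The intervals of the libraries did not overlap in any gate. The ratios were 0.38 (0.37 to 0.39), 0.42 (0.35 to 0.51) and 0.25 (0.18 to 0.34).

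Rgs2, a regulator with a preference for the Gq class of alpha subunits, was also lower in each gate, most in CD4 cells without Foxp3. Its level in that gate was 125 CPM (115 to 135) with mSTAR1302 and 309 CPM (293 to 326) with vehicle, a ratio of 0.40 (0.37 to 0.44). CD8 cells held 131 CPM (128 to 135) and 213 CPM (208 to 218), a ratio of 0.62 (0.60 to 0.64). In CD4 cells with Foxp3 the libraries were closer, at 214 CPM (189 to 242) and 252 CPM (244 to 260.1), a ratio of 0.85 (0.75 to 0.96).

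The promoters of Rgs2 and Rgs16 are shown because both genes were lower with mSTAR1302 in every gate. Each runs from 250 bases before to 50 after the RefSeq start site in GRCm38.p6, Rgs2 at chr1:144004100-144004399 on the minus strand and Rgs16 at chr1:153740103-153740402 on the plus strand. Capitals mark the core of a cyclic AMP response element (TGACG, or CGTCA on the other strand) and the CCAAT box (CCAAT or ATTGG).
Rgs2: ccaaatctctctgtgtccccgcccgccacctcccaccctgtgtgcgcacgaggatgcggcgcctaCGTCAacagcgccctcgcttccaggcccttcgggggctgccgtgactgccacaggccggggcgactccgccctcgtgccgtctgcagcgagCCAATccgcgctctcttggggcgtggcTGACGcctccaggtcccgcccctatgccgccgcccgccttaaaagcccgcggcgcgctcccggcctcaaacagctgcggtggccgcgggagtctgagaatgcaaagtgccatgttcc
Rgs16: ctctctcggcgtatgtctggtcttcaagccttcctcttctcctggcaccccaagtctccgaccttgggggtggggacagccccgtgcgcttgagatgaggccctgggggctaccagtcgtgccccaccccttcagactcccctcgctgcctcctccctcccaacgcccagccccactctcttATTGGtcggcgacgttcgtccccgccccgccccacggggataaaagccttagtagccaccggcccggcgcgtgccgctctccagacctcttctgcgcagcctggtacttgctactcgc
The Rgs2 window held TGACG or its reverse 2 times, a match found in 20.8% of all 32851 promoters, and the Rgs16 window did not. Both held 1 CCAAT box, found in 37.4% of promoters, and the GC box GGGCGG (or CCGCCC), 4 times in Rgs2 and 2 times in Rgs16, found in 35.7%. Neither held the full element TGACGTCA (1.79% of promoters), the AP-1 site TGANTCA (7.81%) or the NFAT core GGAAA (61.3%, either strand). Such matches are letters in a window and say nothing of binding. Of the 5 genes, 4 had an entry in the RefSeq promoter table; Rgs1 was not matched.

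Rgs1, which dampens the response of lymphocytes to chemokines, did not follow one direction. CD8 cells held more of it with mSTAR1302, 552 CPM (545 to 559) against 371 CPM (364 to 378), a ratio of 1.49 (1.45 to 1.52). CD4 cells without Foxp3 held less, 562 CPM (542 to 583) against 750.2 CPM (725 to 776), a ratio of 0.75 (0.71 to 0.79). CD4 cells with Foxp3 held 777 CPM (729 to 828) and 706 CPM (692 to 719.97), a ratio of 1.10 (1.03 to 1.18). In the vehicle library the CD8 gate was the lowest of the 3 for Rgs1, while with mSTAR1302 it lay level with CD4 cells without Foxp3.

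Rgs3, a larger regulator with several isoforms, and Rgs10, a small one abundant in macrophages, differed less. Rgs3 stood at 73.8 CPM (71.4 to 76.2) and 74.1 CPM (71.0 to 77.3) in CD8 cells, a ratio of 0.996 (0.944 to 1.05). Its ratios in CD4 cells were 1.18 (0.999 to 1.39) without Foxp3 and 1.17 (0.906 to 1.5) with Foxp3. Rgs10 stood at 76.8 CPM (74.4 to 79.3) and 62.8 CPM (60.0 to 65.8) in CD8 cells, a ratio of 1.22 (1.16 to 1.29). In CD4 cells without Foxp3 its ratio was 0.896 (0.805 to 0.998), at 136 and 152 CPM, but 1 vehicle cell alone held 121 of the Rgs10 UMIs in that gate. That cell also held 180 UMIs of macrophage, B cell or fibroblast markers. With the richest cell of each library left out, an alternative chosen after seeing the data, the vehicle level was 126 CPM and the ratio 1.07 (0.96 to 1.20). Rgs10 in CD4 cells with Foxp3 stood at 141 and 139 CPM, a ratio of 1.01 (0.86 to 1.18).

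**Figure D1:**
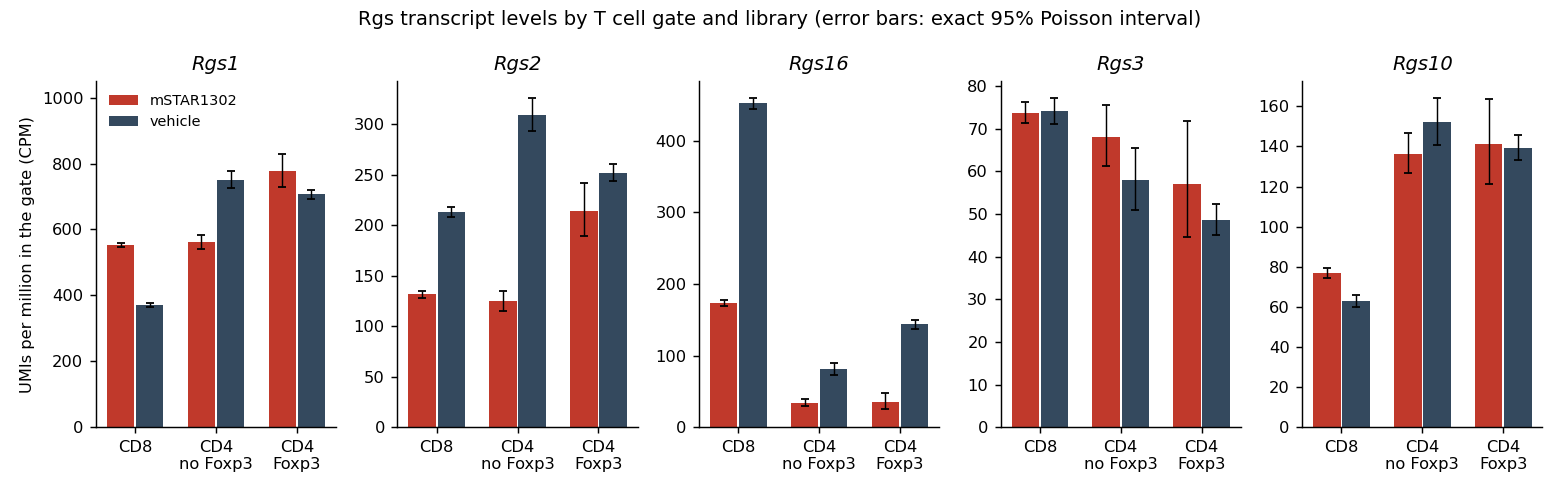
Level of each Rgs transcript (y axis, CPM) in the CD8 gate and in CD4 cells by Foxp3 UMI, by library. Bars are 1 library each and error bars are exact 95% Poisson intervals; Rgs16 is lower with mSTAR1302 in each gate, 173 against 453 CPM in CD8 cells, while Rgs1 is higher in CD8 cells (552 against 371 CPM) and lower in CD4 cells without Foxp3.

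Read against all genes of at least 20 CPM in either library, a 2-fold difference was uncommon. In CD8 cells 4.73% of 5473 genes were at least 2-fold lower with mSTAR1302 and 1.04% at least 2-fold higher, and of the 5 Rgs genes only Rgs16 was among the former and none among the latter. Among CD4 cells without Foxp3 5.35% of 5518 genes were at least 2-fold lower and 0.906% higher, with Rgs2 and Rgs16 among the lower. Among CD4 cells with Foxp3 1.95% of 5732 genes were at least 2-fold lower and 0.576% higher, with Rgs16 among the lower. Ordered by ratio, 0.401% of genes in CD4 cells with Foxp3 and 2.72% in CD8 cells lay below Rgs16, and 96.6% in CD8 cells lay below Rgs1. The median log2 ratio of all genes was -0.14, -0.21 and -0.13 in the 3 gates, so a gene at a ratio of 1 lay above most others. A counting interval off 1 was common in these large sums: in CD8 cells it lay above 1 for 19% of genes and below 1 for 59%, with Rgs1 and Rgs10 above and Rgs2 and Rgs16 below. For CD4 cells without Foxp3 the shares were 12.1% and 44%, with no member above and Rgs1, Rgs2, Rgs10 and Rgs16 below, and for those with Foxp3 7.03% and 21.1%, with Rgs1 above and Rgs2 and Rgs16 below. Because the genes were chosen on these ratios, their place in the order is not evidence for them.

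Several technical measures moved with the libraries. Vehicle cells were deeper (median 9865.5 against 6597.5 UMIs in the CD8 gate), and 16.3% of vehicle CD8 cells held a Foxp3 UMI against 3.07% with mSTAR1302. The 9 macrophage and monocyte markers summed to 902 CPM in vehicle and 80.3 CPM in mSTAR1302 CD8 cells, to 1287 and 84.6 CPM in CD4 cells without Foxp3, and to 333 and 12.8 CPM in CD4 cells with Foxp3. Regulatory T cell markers summed to 1361 CPM with mSTAR1302 and 2446 CPM with vehicle in CD4 cells without Foxp3, where Rgs1 and Rgs2 were lower, and dendritic cell markers to 2.30 and 31.5 CPM. Their part in those differences was not tested. In that gate 1 vehicle cell of 28736 UMIs held the most UMIs of both Rgs1 (88) and Rgs2 (44). It also held 1058 UMIs of macrophage, B cell or fibroblast markers. With the richest cell of each library left out, chosen after seeing the data, the ratios were 0.75 (0.72 to 0.79) and 0.41 (0.37 to 0.45). None of the 9 macrophage and monocyte markers was at 0 in the CD8 gate of either library. Cells rich in the macrophage genes C1qa, C1qb and C1qc and poor in Cd3 (22 and 80 cells) held Rgs16 at only 2.48 and 5.80 CPM. Without T cells that held 3 or more UMIs of macrophage, B cell or fibroblast markers (55 and 260 of the CD8 cells), the Rgs16 ratio in CD8 cells was 0.36, that of Rgs2 0.59 and that of Rgs1 1.46. Without CD8 cells that held Foxp3 the Rgs16 ratio was 0.35, and in cells of 5000 to 10000 UMIs it was 0.28. The C1q-rich cells did hold Rgs1 (1246 and 1034 CPM), Rgs2 (295 and 247 CPM) and Rgs10 (218 and 333 CPM). Near-empty droplets of 10 to 100 UMIs held Rgs16 at 112 and 204 CPM and Rgs1 at 522 and 468 CPM, so free RNA carried these transcripts too. With the near-empty profile subtracted at 5% of UMIs the ratio in CD8 cells was 0.38 for Rgs16 and 1.51 for Rgs1. What other amounts of free RNA would do was not tested.

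Outside the 3 gates the genes kept to different patterns. T cells with both Cd4 and Cd8 (843 and 1302 cells, which may include droplets of several cells) held Rgs16 at 173 and 253.5 CPM, a ratio of 0.68 (0.65 to 0.72). T cells with neither held it at 69.6 and 103 CPM, and cells without a Cd3 UMI at 37.1 and 38.9 CPM with overlapping intervals. In the vehicle library the order of Rgs16 levels was CD8, both, CD4 with Foxp3, neither, CD4 without Foxp3 and no Cd3, with no overlap between neighbours. With mSTAR1302 the CD8 cells and the cells with both were level at 173 CPM, and the CD4 gates and the cells without Cd3 overlapped at 34.3 to 37.1 CPM. Rgs2 was lower with mSTAR1302 in all 6 groups, with ratios of 0.40 to 0.85. Rgs10 was lower with mSTAR1302 in each group outside the gates. Its ratio was 0.82 (0.76 to 0.89) in T cells with both and 0.72 (0.63 to 0.82) in those with neither. In cells without a Cd3 UMI it was 0.46 (0.36 to 0.58), at 94.0 and 205 CPM.

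**Figure D2:**
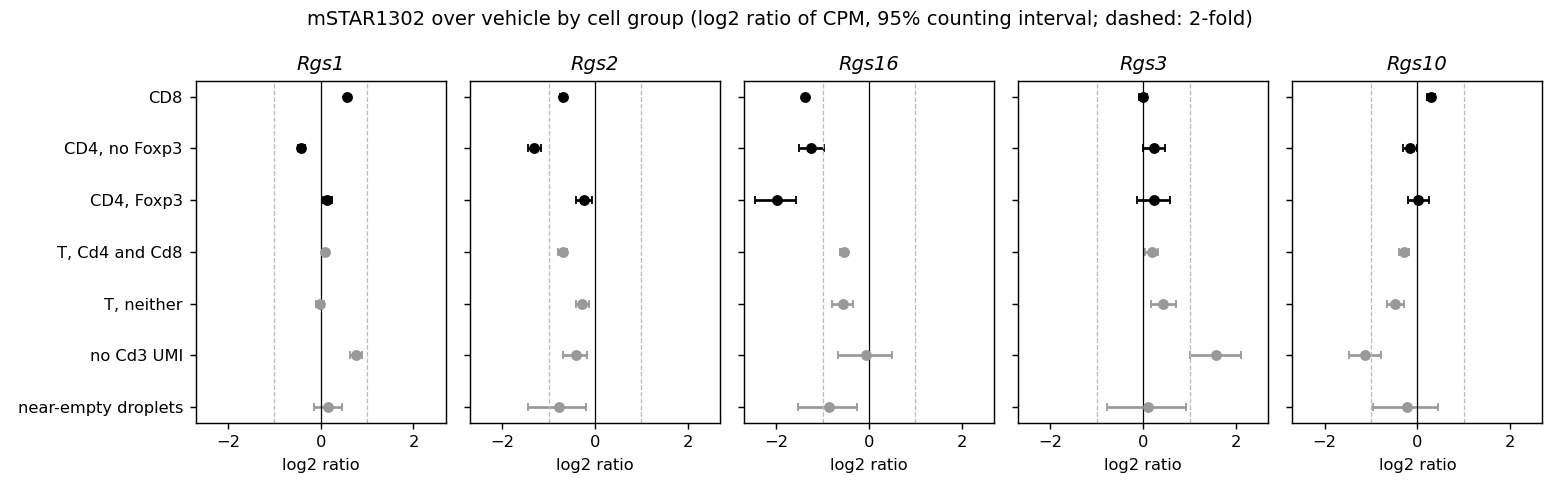
Ratio of mSTAR1302 over vehicle for each gene (x axis, log2 ratio of CPM) in 6 cell groups and in near-empty droplets, with 95% counting intervals. Black points are the 3 gates and grey points the other groups; dashed lines mark 2-fold. Rgs2 and Rgs16 lie left of 0 in the gates, with Rgs16 at 0.38, 0.42 and 0.25, and Rgs1 lies on both sides.

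A lower level can mean fewer cells with the transcript or fewer transcripts per cell, so cells were thinned to 3000 UMIs each and counted (5610 and 2340 CD8 cells were deep enough, with 680 and 120 left out). At that depth 20.8% of CD8 cells held an Rgs16 UMI with mSTAR1302 (exact Clopper-Pearson interval 19.8 to 21.9%) and 53.6% with vehicle (51.6 to 55.7%), a difference of -32.8 percentage points (-35.1 to -30.5, Newcombe interval). Unthinned, the shares were 28.4% and 72.7%. Among the C1q-rich cells, 4.76% of 21 and 2.78% of 72 thinned cells held an Rgs16 UMI. Unthinned, 4.55% of 22 and 13.75% of 80 did. Holders carried a mean of 2.27 and 2.83 Rgs16 UMIs after thinning. The mean in holders is bounded from below, because a holder has a UMI by definition. These values therefore cannot tell fewer cells from fewer transcripts per cell. The 10% of CD8 cells richest in Rgs16 held 75.3% of its unthinned UMIs with mSTAR1302 and 43.6% with vehicle.

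The other members were counted in the same way. Rgs1 was in 62.0% of thinned CD8 cells with mSTAR1302 (60.7 to 63.2%) and 48.5% with vehicle (46.4 to 50.5%), against 85.7% and 70.8% of C1q-rich cells. At full depth Rgs1 was in 2 of 10 and 4 of 24 collagen- or keratin-rich cells, which are too few to set a background for it. Holders carried a mean of 2.78 and 2.53 Rgs1 UMIs after thinning. Rgs2 was in 26.7% (25.6 to 27.9%) and 39.7% (37.7 to 41.7%) of CD8 cells, with means of 1.56 and 1.77 UMIs in a holder. Rgs3 was in 19.2% and 20.3%, a difference of -1.10 points (-3.06 to 0.80), and Rgs10 in 18.3% and 14.8%, a difference of 3.51 points (1.72 to 5.24). Unthinned, where vehicle cells were deeper, 3.33% of all genes were in a higher share of CD8 cells with mSTAR1302, Rgs1 among them, and 91.3% in a lower share, with Rgs2, Rgs3 and Rgs16. At equal depth 14% of all genes were in a higher share of CD8 cells with mSTAR1302 by this interval, with Rgs1 and Rgs10 among them, and 41.8% in a lower share, with Rgs2 and Rgs16. Among thinned CD4 cells without Foxp3, 8.74% of genes had a higher share, with no member among them, and 25.2% a lower one, with Rgs2 (25.9% against 45.5%) and Rgs16 (6.23% against 16.3%). Unthinned, those shares of genes were 10.6% and 36.5% with the same members. Among thinned CD4 cells with Foxp3, 3.49% of genes had a higher share, with no member, and 8.34% a lower one, with Rgs16 alone (8.96% against 30.3%). Unthinned, 1.2% and 35.3% of genes did, with Rgs2, Rgs10 and Rgs16 among the lower.

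**Figure D3:**
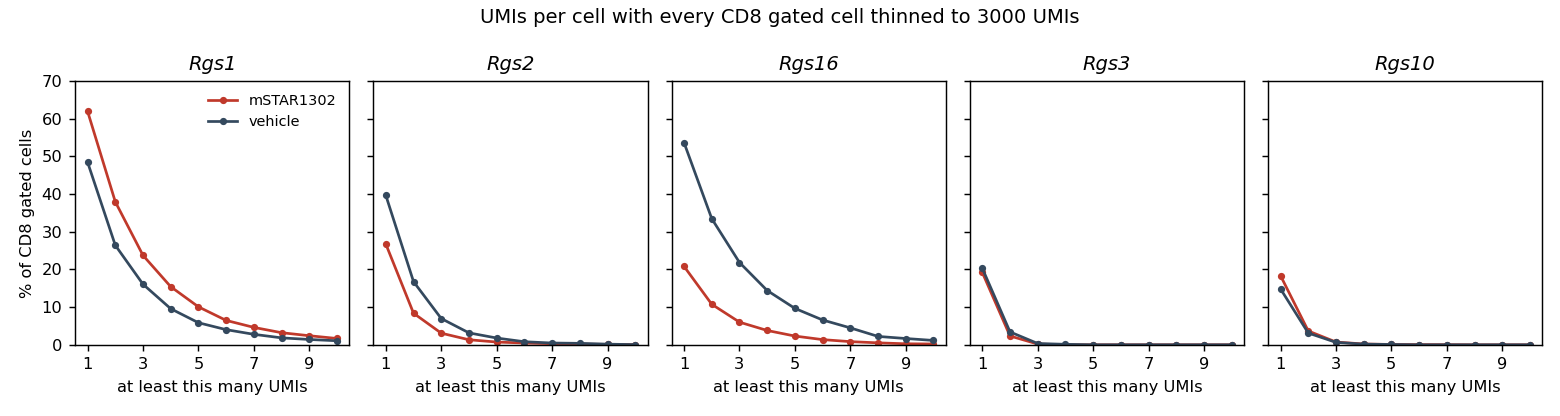
Share of CD8 cells (y axis, percent) that held at least the number of UMIs on the x axis, with every cell thinned to 3000 UMIs, by library. Curves for Rgs16 start at 20.8% with mSTAR1302 and 53.6% with vehicle and stay apart to higher UMI counts; those for Rgs3 lie together.

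Rgs1, Rgs2 and Rgs16 met in the same cells to different degrees. Among thinned CD8 cells, Rgs2 was found in 30.7% of cells with Rgs1 and 20.3% of cells without it in the mSTAR1302 library, and in 44.3% and 35.3% with vehicle. Rgs16 was in 20.7% of cells with Rgs1 and 20.9% of cells without with mSTAR1302, and in 52.3% and 54.9% with vehicle. Rgs10 went the other way from Rgs16: it was in 12.2% of Rgs16 holders and 20.0% of other cells with mSTAR1302, and in 10.2% and 20.2% with vehicle. All 3 of Rgs1, Rgs2 and Rgs16 were in 5.13% of cells with mSTAR1302 and 11.6% with vehicle, and none of them in 24.5% and 15.9%. Cells of 1 library share their source, so these shares are descriptions.

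CD8 cells were next split by single transcripts of known states. Havcr2 encodes the inhibitory receptor TIM-3 of terminally differentiated cells, Tcf7 a transcription factor of naive and stem-like cells, Gzma the secreted protease granzyme A, and Mki67 and Top2a mark cycling cells. Rgs16 was higher in Havcr2 holders than in other cells in both libraries, at 350.5 and 83.8 CPM with mSTAR1302 and at 695 and 363 CPM with vehicle. The ratio of libraries was 0.50 (0.49 to 0.52) with Havcr2 and 0.23 (0.22 to 0.24) without. Tcf7 holders were low in Rgs16, at 60.8 CPM with mSTAR1302 and 223 CPM with vehicle. Cells with Gzma held Rgs16 at 113 CPM and cells without at 296 CPM with mSTAR1302, while in vehicle the levels were 441 and 454 CPM with overlapping intervals. Only 189 vehicle CD8 cells held Gzma, against 4080 with mSTAR1302. Cycling cells held slightly less Rgs16 than the others, at 159 against 184 CPM and 398 against 514 CPM.

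Rgs1 and Rgs2 varied less over these states. Rgs1 with mSTAR1302 was highest in Havcr2 holders, at 616 CPM, and its ratio of libraries was 1.26 (1.22 to 1.31) with Havcr2 and 1.58 (1.54 to 1.63) without. In Gzma holders the Rgs1 levels were 581 and 547 CPM, a ratio of 1.06 (0.999 to 1.13), against 494 and 357 CPM in cells without Gzma, a ratio of 1.38 (1.34 to 1.42). Whether the 2 ratios differ was not tested, and Gzma holders made up far more of the mSTAR1302 library. Rgs2 was lower with mSTAR1302 in all 10 subsets, with ratios of 0.53 (Gzma holders) to 0.77 (cells without Gzma). After thinning the ratio in cells with another Trbv only was 0.90 (0.77 to 1.05), an interval that included 1. Rgs10 was higher in Gzma holders, 86.0 against 50.5 CPM, but not in cells without Gzma, 58.2 against 63.8 CPM.

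**Figure D4:**
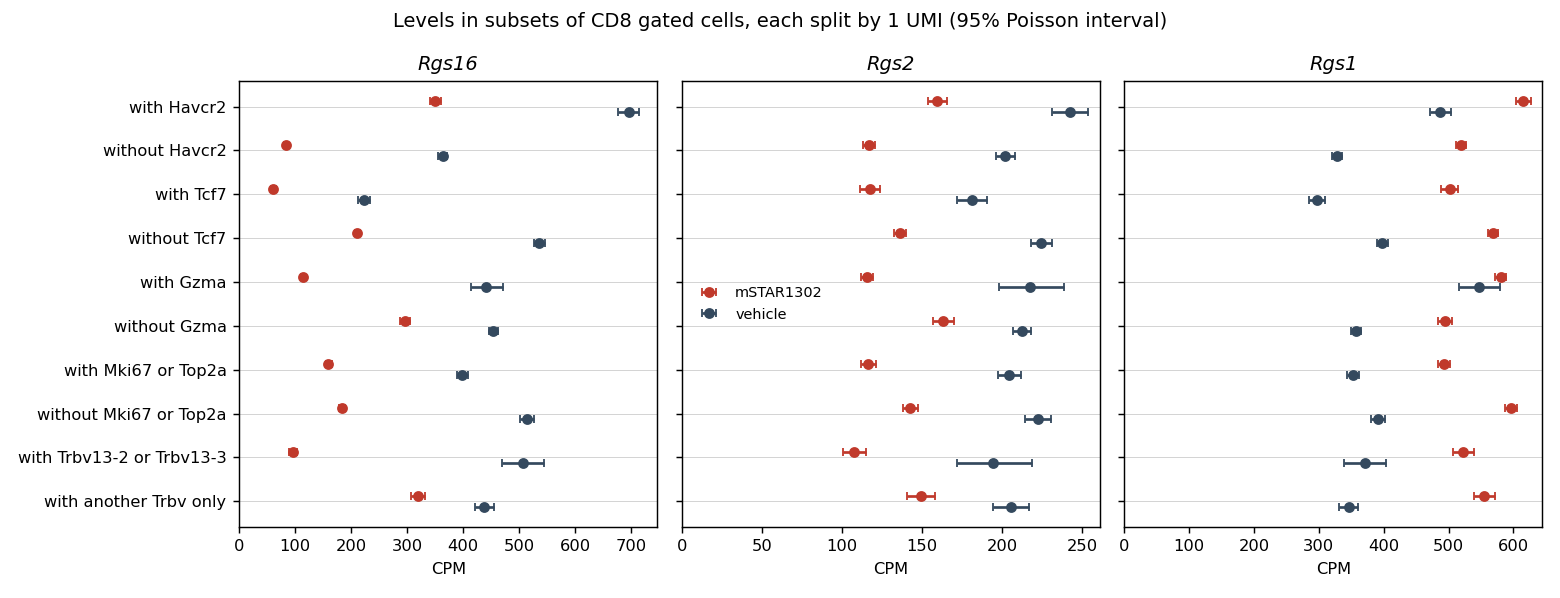
Levels of Rgs16, Rgs2 and Rgs1 (x axes, CPM) in CD8 cells split by a UMI of the gene named on the y axis, by library, with 95% Poisson intervals. Rgs16 is lower with mSTAR1302 in all 10 subsets, and its libraries are closest in cells with another Trbv only (319 and 438 CPM).

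CD8 cells were also split by the receptor segments that mSTAR1302 binds. A Trbv UMI was detected in 1607 and 604 of the CD8 cells. In the mSTAR1302 library, cells with Trbv13-2 or Trbv13-3 (805 cells) held Rgs16 at 95.8 CPM and cells with another Trbv only (802 cells) at 319 CPM, a ratio of 0.30 (0.28 to 0.33) within that library. In the vehicle library the same split gave 506 CPM (101 cells) and 438 CPM (503 cells), a ratio of 1.16 (1.06 to 1.26). An Rgs16 UMI was in 19.1% (16.5 to 22.0%) of the former and 50% (46.5 to 53.5%) of the latter cells with mSTAR1302, and in 72.3% (62.5 to 80.7%) and 76.7% (72.8 to 80.4%) with vehicle. Between libraries, the ratio was 0.19 (0.17 to 0.21) in cells with a bound segment and 0.73 (0.69 to 0.77) in the others. Median depth was close within a library, 8329 and 8469 UMIs with mSTAR1302 and 11933 and 11099 with vehicle.

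Other measures moved with the same split. In the mSTAR1302 library Gzma was in 76.9% of cells with a bound segment and 55.7% of the others, and Havcr2 in 23.1% and 42.0%. The Rgs16 difference was present within those states. Among mSTAR1302 cells with Gzma it was 61.3 against 218 CPM, and among those without 215 against 449 CPM. With Havcr2 the levels were 213 and 441 CPM, and without it 48.1 and 179.9 CPM. In the vehicle library the split had no single direction within states, at 1069 and 723 CPM with Havcr2 (27 and 107 cells) and 274 and 347 CPM without. Cells of 1 clone share a receptor and are not independent, so the intervals of this split are too narrow, and whether few clones carried the difference was not tested.

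Segment by segment, 11 Trbv segments had at least 15 CD8 cells in each library when cells with UMIs of a single segment were taken. Rgs16 in Trbv13-3 cells stood at 63.7 CPM (457 cells) with mSTAR1302 and 712 CPM (27 cells) with vehicle, a ratio of 0.089 (0.075 to 0.11). In Trbv13-2 cells it stood at 105 and 431 CPM, a ratio of 0.24 (0.20 to 0.29). Trbv12-2, which neighbours Trbv13-2 and is not a named target, was like them at 121 and 544 CPM, a ratio of 0.22 (0.19 to 0.26). Whether Trbv12-2 UMIs came from transcripts that run on into the neighbouring segment was not tested. Of CD8 cells with Trbv12-2 UMIs, 81 of 361 and 14 of 65 also held a bound segment, and these were not in the single-segment count. Trbv31 came next, at 262 and 613 CPM, a ratio of 0.43 (0.32 to 0.56). The remaining 7 segments had ratios of 0.67 (Trbv20) to 1.28 (Trbv14), and for Trbv5, Trbv13-1 and Trbv29 the interval included 1. Without Trbv12-2 cells on either side, the ratio of bound over other segments was 0.24 (0.22 to 0.26) within the mSTAR1302 library and 1.10 (1.00 to 1.20) within vehicle. Without Foxp3 holders it was 0.29 and 0.99 (0.90 to 1.09), the latter from 82 and 431 vehicle cells with an interval that included 1. After thinning it was 0.29 and 1.42 (1.20 to 1.67). The part of Foxp3 holders in the vehicle difference was not tested. All of these settings were chosen after seeing the data.

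**Figure D5:**
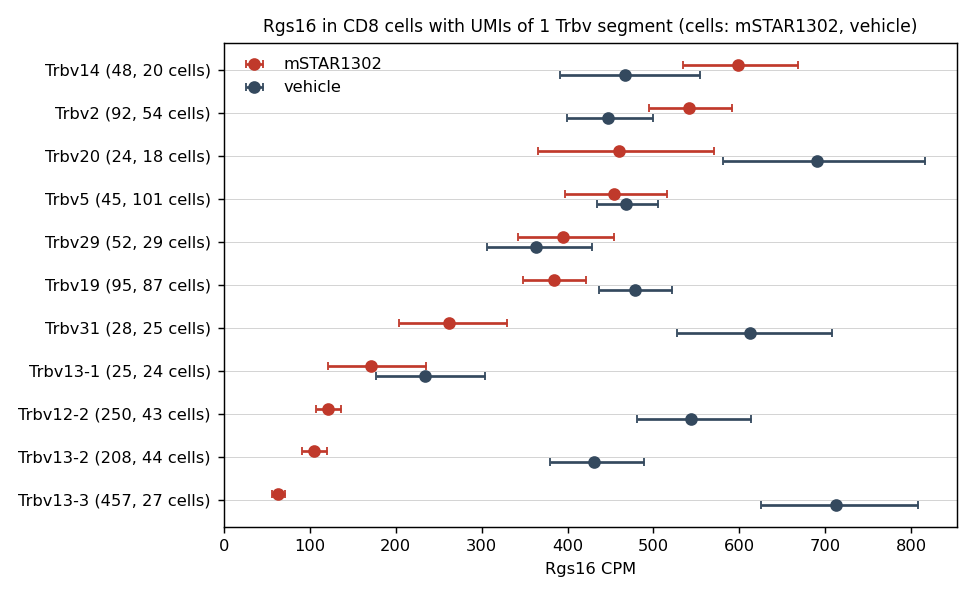
Rgs16 level (x axis, CPM, 95% Poisson interval) in CD8 cells with UMIs of 1 Trbv segment, ordered by the mSTAR1302 level, with cell numbers in brackets. With mSTAR1302 the lowest 3 are Trbv13-3, Trbv13-2 and Trbv12-2, at 63.7, 105 and 121 CPM, and their vehicle levels are 431 to 712 CPM.

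Within the mSTAR1302 library the other members showed the Trbv split less than Rgs16 did. Rgs2 within the mSTAR1302 library stood at 108 CPM with a bound segment and 149 CPM with another, a ratio of 0.72 (0.66 to 0.79). With vehicle it stood at 194 and 206 CPM, a ratio of 0.94 (0.83 to 1.08). After thinning the Rgs2 ratios were 0.61 (0.52 to 0.72) and 1.14 (0.86 to 1.49). Rgs1 had ratios of 0.94 (0.90 to 0.98) and 1.07 (0.97 to 1.18), the former 1.0015 (0.93 to 1.08) after thinning. Rgs10 was higher with a bound segment in the mSTAR1302 library, 82.6 against 58.7 CPM (1.41, 1.25 to 1.59). That ratio was 1.79 (1.54 to 2.09) without Trbv12-2 cells but 1.12 (0.90 to 1.39) after thinning. Within the states above it ranged from 0.82 (0.66 to 1.02, with Tcf7) to 1.94 (1.57 to 2.40, with Havcr2). Rgs3 stood at 79.6 and 64.3 CPM in the mSTAR1302 library, a ratio of 1.24 (1.10 to 1.39), which was 1.17 (0.94 to 1.45) after thinning.

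Among the 16 other Rgs genes, only Rgs19, which acts on Gi-class subunits, passed 20 CPM in CD8 cells, at 35.3 and 28.7 CPM, and Rgs14 joined it in CD4 cells with Foxp3. Rgs1, Rgs2 and Rgs16 lie on chromosome 1 in GRCm38 with relatives beside them. Rgs2 (ENSMUSG00000026360) spans 143999338 to 144004161 and Rgs1 (ENSMUSG00000026358) 144242296 to 144249242 on the minus strand, with Rgs13 between them and Rgs21 and Rgs18 beyond Rgs1. Rgs13 and Rgs21 had 0 UMIs in all 6 cell groups, which allows up to 3 UMIs in each. Rgs16 (ENSMUSG00000026475) spans 153740349 to 153745468 on the plus strand, 40.0 kb from Rgs8. Rgs8 was rare in CD8 cells but also lower with mSTAR1302, at 2.52 CPM (123 UMIs) against 6.70 CPM (194 UMIs). This was not particular to the neighbour of Rgs16. Other rare Rgs genes were lower too, such as Rgs5 (0.90 and 4.80 CPM) and Rgs18 (0 and 27 UMIs), while Rgs19 was higher. Rgs3 (ENSMUSG00000059810) lies on chromosome 4 at 62559847 to 62704001 and Rgs10 (ENSMUSG00000030844) on chromosome 7 at 128373621 to 128418758. The antisense genes Gm28513 and Gm11209 overlap Rgs16 and Rgs3, and Gm15503 overlaps Rgs10 on its own strand. In CD8 cells Gm28513 and Gm11209 stood at no more than 0.79 and 0.21 CPM. Gm15503 stood at 5.84 CPM (285 UMIs) with mSTAR1302 and 1.80 CPM (52 UMIs) with vehicle. Its part in the Rgs10 counts was not tested.

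The receptors whose signals RGS proteins shorten were counted first. The background in CD8 cells was 1.04% of all genes 2-fold higher and 4.73% 2-fold lower. A gene passed at 20 CPM in either library, so some 2-fold genes passed only through the library where they were higher. Of 17 chemokine receptors 7 passed 20 CPM in CD8 cells, 3 of them at least 2-fold higher with mSTAR1302 and 2 at least 2-fold lower, and the median log2 ratio was 0.63 against -0.14 for all genes. Ccr2, which responds to Ccl2, stood at 151 and 70.2 CPM (ratio 2.15, 2.04 to 2.26). Ccr7, the lymph node homing receptor, stood at 97.6 and 413 CPM, 4.23-fold lower, and Cx3cr1, the fractalkine receptor, at 12.1 and 45.3 CPM, 3.75-fold lower. In CD4 cells without Foxp3, 8 passed, 1 of them 2-fold higher and 4 lower, beside 0.906% and 5.35% of all genes. Cxcr6, a receptor of tissue T cells, stood at 456 and 156 CPM there (ratio 2.93, 2.68 to 3.19), and Ccr9, the gut homing receptor, at 0.38 and 25.2 CPM (0.015, 0.0018 to 0.056). In CD4 cells with Foxp3, 9 passed, none 2-fold higher and 1, Ccr1, 2-fold lower, beside 0.576% and 1.95% of all genes. In the gates where they are named here, Cx3cr1, Ccr9 and Ccr1 reached 20 CPM only with vehicle.

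Of 26 other G protein-coupled receptors 14 passed in CD8 cells, of which the adhesion receptor Adgrg5 (ratio 2.25) and the lysolipid receptor Gpr55 (2.24) were at least 2-fold higher and none 2-fold lower. Among CD4 cells without Foxp3 the counts were 0 higher and 3 lower of 16, beside 0.906% and 5.35% of all genes. In CD4 cells with Foxp3 they were 1 higher and 1 lower of 15, the latter Gpr55 (16.8 and 34.9 CPM). Gpr55 reached 20 CPM there only with vehicle. The shares of all genes there were 0.576% and 1.95%. No G alpha subunit (6 passed) and no G beta or gamma subunit (6 passed) differed 2-fold in CD8 cells, with median log2 ratios of -0.17 and -0.04. These counts are too small to be set apart from the CD8 background. Gna13 stood at 341 and 257 CPM (ratio 1.33), Gnaq, a substrate of Rgs2, at 13.4 and 24.9 CPM (0.54), and the gamma subunit Gng2 at 210 (209.9) and 145 CPM (1.45). The same was true of 3 receptor kinases and arrestins, 2 other modulators, 8 effectors and 11 cyclic AMP genes, none of which was 2-fold apart in CD8 cells. Pik3r5, the adaptor of the G protein-driven PI3 kinase, had a ratio of 1.77 (1.63 to 1.94) and Pde3b, which degrades cyclic AMP, 1.84 (1.74 to 1.96), while the adenylate cyclase Adcy7 had 0.69 (0.65 to 0.73) and Prkaca, the catalytic subunit of protein kinase A, 0.65 (0.58 to 0.72).

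Genes induced through the T cell receptor are read against all genes, of which 72.5%, 73.3% and 67.8% had a ratio under 1 in the 3 gates. Of 13 T cell receptor response genes, 12 passed in CD8 cells, 6 at least 2-fold lower and none higher, with a median log2 ratio of -0.85. The shares of all genes in that gate were 4.73% lower and 1.04% higher. The chemokine gene Xcl1 stood at 160.4 and 775 CPM and Tox, a regulator of exhausted cells, at 21.4 and 84.1 CPM, while Cd69, an early activation marker, was higher at 1059 and 719 CPM (ratio 1.47). Beside background shares of 5.35% and 1.95%, 1 of 11 in CD4 cells without Foxp3 was 2-fold lower (Xcl1, 12.3 and 131 CPM), and in CD4 cells with Foxp3 1 of 10 (Nr4a1, 135 and 331 CPM). Of 15 immediate early genes, which also answer to tissue digestion, 1 was 2-fold lower in CD8 cells (Atf3, 118 and 251 CPM). Their median log2 ratio was -0.50. A count of 1 of 15 cannot be set apart from the 4.73% of all genes. In CD4 cells without Foxp3, Zfp36 (136 and 417 CPM) and Jun (297 and 639 CPM) were 2-fold lower, beside 5.35% of all genes. In CD4 cells with Foxp3 the heat shock genes Hspa1b (81.8 and 29.5 CPM) and Hspa1a (48.9 and 19.8 CPM) were 2-fold higher. The share of all genes 2-fold higher there was 0.576%, and Hspa1a reached 20 CPM only with mSTAR1302. The part of tissue handling in the levels of Rgs1, Rgs2 and Rgs16 was not tested.

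The genes most like each member were found over 12 profiles, the 6 cell groups of each library, among 6102 genes, by Pearson's r of log2(CPM + 1), given as a description because profiles of 1 library share its depth and free RNA. Rgs16 was most like Pkp4 (r 0.91), Pld3 (0.91) and Nrn1 (0.90). Rgs1 was most like Samhd1 (0.93), Ankrd11 (0.90) and Parp9 (0.88), and Rgs2 like Bbx (0.96), Dlg1 (0.94) and Egln2 (0.94). Rgs3 was most like Atxn1 (0.96), Ptpn22 (0.95) and Ss18 (0.94), and Rgs10 like Leprot (0.91), Ppp1r11 (0.90) and Rbfa (0.90). The members were not like each other, with r from -0.74 (Rgs3 and Rgs10) to 0.47 (Rgs2 and Rgs10), and 0.06 for Rgs2 and Rgs16.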

How the data were processed

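The authors deposited unnormalized counts: whole UMIs of each gene under each barcode. Per the file headers the authors made them with Cell Ranger 4, and per the submitters' processing notes with version 6.0.1, on mm10; the notes also name FastQC, MultiQC 1.9 and Seurat. The annotation release and use of strand are not given in the sources used here. No cell annotation was used. Groups come from the sample titles.

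Barcodes with at least 1000 UMIs, 500 genes and at most 10% mitochondrial UMIs were kept (1872 and 1704 barcodes fell to the mitochondrial limit). Doublets were not removed. T cells had at least 2 UMIs of Cd3d, Cd3e and Cd3g. UMIs were summed over a gate and divided by its total. With 1 library per group no test was run, cells being no replicates. Thinning to 3000 UMIs used seed 1. The 2-fold cut was tried on simulated counts, but the 95% intervals were not checked by simulation. Pathway lists were read at 20 CPM in either library, and text names the 2 largest and 2 smallest ratios of each list and gate, or some of them, and for each member the 3 genes of highest r. Some genes that this rule names are not reported here. Rgs14, Rgs8, Rgs5, Rgs18, Rgs13, Rgs21 and the overlapping genes were named after their values were seen. The members and lists were chosen with earlier results of these data known. Alternatives covered scaling, filters, gates, depth, cells of other types, cycling cells and free RNA. Positions are from GENCODE M21 (GRCm38, the assembly of mm10). Scripts ran in Python 3.11.15 with pandas 2.3.3, NumPy 2.4.6 and SciPy 1.17.1, and figures were drawn with matplotlib 3.10.9.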

Additional observations from a re-analysis of the deposited data

Results flagged for a closer look

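Rgs1 differed in direction between gates, with a ratio of mSTAR1302 over vehicle of 1.49 in CD8 cells, 0.75 in CD4 cells without Foxp3 and 1.10 in CD4 cells with Foxp3. Rgs10 did so too, with a CD8 ratio of 1.22 and a ratio of 0.896 in CD4 cells without Foxp3. There a single vehicle cell of 56210 UMIs carried 121 Rgs10 UMIs and 180 UMIs of macrophage, B cell or fibroblast markers. The Rgs10 ratio was 1.07 without the richest cell of each library. The differences between gates were not tested, since each group is 1 library.

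Some ratios were also above 1 in cells outside the 3 gates. Rgs1 had a ratio of 1.07 in T cells with both Cd4 and Cd8 and 1.70 in cells without a Cd3 UMI. Rgs3 had ratios of 1.13 in T cells with both, 1.35 in T cells with neither and 2.97 (2.02 to 4.33) in cells without Cd3. The last came from 54.5 and 18.4 CPM (47 and 76 UMIs) in 192 and 472 cells. After thinning, the share of those cells with Rgs3 differed by 5.19 points (-1.44 to 17.6, 43 and 219 cells). Their make-up differed too, with fibroblast markers at 657 and 179 CPM and dendritic cell markers at 315 and 1269 CPM. The part of this in the Rgs3 ratio was not tested.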

How the results depend on the processing

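Under 13 alternatives in CD8 cells Rgs1 and Rgs10 stayed higher and Rgs2 and Rgs16 lower with mSTAR1302; the Rgs16 ratio ranged from 0.28 to 0.42, and in CD4 cells with Foxp3 from 0.13 to 0.29 (12 alternatives). Rgs3 in CD8 cells and Rgs10 in CD4 cells without Foxp3 changed side, from 0.83 to 1.10 and from 0.84 to 1.18. Rgs1 in CD4 cells with Foxp3 was above 1 in 11 of 12. Among CD4 cells without Foxp3 the ratio ranged from 0.66 to 0.87 for Rgs1 and from 0.37 to 0.47 for Rgs2 (12 alternatives). In CD4 cells without Foxp3, no member's interval lay above 1 as reported. The count was 1 with median-of-ratios scaling, at least 2000 UMIs, 1 Cd3 UMI, a lineage gate of 2 UMIs, or with cells above 20000 UMIs, cells with other markers or cycling cells left out, and 2 at 5% mitochondrial UMIs. In CD4 cells with Foxp3, intervals below 1 numbered 1, not 2, with median-of-ratios scaling, thinning or cycling cells left out. The shares of all genes with such intervals were not counted under these settings. Without cycling cells, 1 member, not 2, was 2-fold lower in CD4 cells without Foxp3, beside 6.68% of 5466 genes. At 1.5-fold, 2 members were lower in CD8 cells, and the share of all genes at that cut was not counted. Without a low-value filter, pathway genes past 2-fold higher and lower were 8 and 33 in CD8 cells (5 and 9 with it), 6 and 35 in CD4 cells without Foxp3 (1 and 10; 18 lower at 10 CPM) and 6 and 24 with Foxp3 (3 and 3). The shares of all genes past 2-fold without that filter, or at 10 CPM, were not counted. The pathway counts at those settings are therefore no result about the pathways. After thinning, 2 members had a higher share in CD8 cells (1 unthinned) and 1 a lower share in CD4 cells with Foxp3 (3 unthinned). The causes were not tested. Median-of-ratios scaling shifts all log2 ratios by 0.14, 0.21 and 0.13 in the 3 gates. No paired analysis was possible because each group is 1 library and the result comes from no test. The 146 cells of the CD4 gate with Foxp3 under mSTAR1302 limit its precision.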
